A study of Mus musculus with 22 samples.

Results

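The measurements below compare embryonic mouse heart ventricles in which Sav1 was deleted with ventricles that kept it, all of them with the MuvB subunit LIN9 present. The libraries were taken by their labels from the second RNA-seq experiment of the study: the 3 labelled Sav1 knockout with LIN9 wild-type and the 3 labelled wild-type for both, 6 of the 12 libraries of that experiment, of 18 RNA-seq libraries and of 22 samples in all. The comparison asks what loss of SAV1 does to ventricular transcripts while LIN9 is there. Ventricles were collected at E13.5, and polyA RNA was sequenced in triplicate for each genotype. Every embryo carried Nkx2.5-Cre, which is active in cardiac precursor cells, so the controls carry the recombinase too. In the knockout both Sav1 alleles are floxed around exon 3 (Sav1 fl/fl, strain Sav1tm1.1Dupa/J), and the controls have unmodified Sav1 (Sav1 +/+). The labels call LIN9 wild-type in both groups, whereas the paper gives the Lin9 genotype of these embryos as fl/+. The floxed Lin9 allele has loxP sites around exon 7. On that account 1 Lin9 allele could also be recombined in controls and knockouts alike. The other 6 libraries of the experiment carry the same 2 Sav1 genotypes on a Lin9 fl/fl background, called LIN9 KO here. With a reporter strain the paper found recombination by Nkx2.5-Cre in nearly all cardiomyocytes at E13.5. Any cell of a ventricle in which it did not act keeps intact Sav1, and the share of such cells in these libraries was not measured. Whether a library holds 1 embryo or a pool is not stated, and the p-values below measure the spread between libraries alone. Unless stated otherwise, that spread was estimated over all 12 libraries of the experiment. The summed counts were 2940111, 2930616 and 2912330 in controls 1, 2 and 3 and 2974933, 2971995 and 2958879 in knockouts 1, 2 and 3, so that 1 count stands for 0.332 to 0.346 CPM, the unit of level used below, in which all libraries are scaled to an equal size.

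SAV1 is the adaptor of the Hippo kinase cascade: it joins the kinases MST1 and MST2, made from Stk4 and Stk3, to their substrates LATS1 and LATS2, which phosphorylate the coactivators YAP and TAZ and keep them out of the nucleus. When the cascade is off, YAP and TAZ bind TEAD factors on DNA and drive genes of growth and division, and in the heart this pathway is known for holding back cardiomyocyte proliferation. LIN9 belongs to MuvB, which with B-MYB forms the MMB complex that activates genes of the G2 phase and mitosis.

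Some libraries stood apart from their group, and this bears on several results. In a principal component analysis of the 6 libraries, control 1 had a score of -44.6 on the first component (28.3% of the variance) against 13.9 and 13 for controls 2 and 3. Knockout 1 stood at -7.16 on it, against 14.1 and 10.9 for the other knockouts. The second component (20.7%) parted the genotypes, with -7.96, -20.7 and -23.6 in the controls and 21.3, 17.2 and 13.7 in the knockouts. Among 8740 genes with a mean of at least 20 CPM, 158 lay in control 1 below 0.5 times the mean of the other controls; no gene did so in control 2 or 3, and 6 did in knockout 1. Most of these genes are long, with a median exonic length of 9602 bases against 4875 for all 8740. Of the 158, 153 were also lower in knockout 1 than the mean of knockouts 2 and 3, and by a median of -0.45 on the log2 scale; of all 8740 genes 4046 were (46.3%). Cenpf, which encodes a large kinetochore protein, is 1 of them: it measured 23.3, 135 and 146 CPM in the controls and 79.8, 178 and 191 CPM in the knockouts. The replicates numbered 1 therefore stand low for Cenpf in both genotypes, and the groups overlap.

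The other set that stood apart shares 1 profile over all libraries. Of genes with at least 20 CPM, 20 had a log2 fold change below -1, from -1.68 to -1.06, against 1 gene above 1. All 20 were lower in every knockout library than in every control, with p-values between 0.198 and 0.304 and 0 past the adjusted threshold in edgeR over the 12 libraries. The model matters for this set: in edgeR on the 6 libraries alone 4 of them passed (Gm24245, Mir6236, Kcnip1 and Gm25911), and with replicate numbers as a block on those 6 all 20 did, CT010467.1 with an adjusted p of 5.17e-38, Lars2 with 2.93e-34, Cdk8 with 6.16e-34 and Jarid2 with 2.99e-31. The most abundant was CT010467.1, annotated as ribosomal RNA on chromosome 17, with 4383, 4960 and 6530 CPM in the controls and 1868, 1902 and 2581 CPM in the knockouts. The controls were thus above all knockouts. Lars2, which encodes the mitochondrial leucyl-tRNA synthetase, measured 1271, 1567 and 2000 CPM in the controls and 555, 596 and 809 CPM in the knockouts. Lars2 kept a nearly fixed ratio to CT010467.1, from 0.29 to 0.316 in these 6 libraries. With LIN9 KO the same ribosomal RNA gene ran from 827, 1164 and 20025 CPM with Sav1 to 7760, 13646 and 12634 CPM without it, so its spread between replicates is as wide as any difference between genotypes. All 20 genes had their highest value of the 12 libraries in the third Sav1 wild-type, LIN9 KO library. They include Jarid2, which encodes a partner of a histone methyltransferase complex, and Cdk8, the kinase of the Mediator complex. These 20 were chosen after their values were seen, and what sets their common profile was not tested. Their values are therefore uncertain as levels of the genes they are named for, and reads of Lars2, Cdk8 or Jarid2 cannot be told apart here from reads of ribosomal RNA sequence counted under those names.

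Deletion of Sav1 went with few changes that passed the test over the 12 libraries. With replicate numbers as a block, 121 genes passed on the 6 libraries alone and 2 over the 12. Such a block assumes that libraries of equal replicate number belong together, which no label states, here and in all blocked values below. Without the block 3 passed over the 12. Sptb, the gene of erythroid and muscle beta spectrin, rose 2.19-fold. Slit2, the gene of a secreted guidance ligand that is also made in the heart, fell to 0.648 of its control level, and Gm4742, a processed pseudogene, rose 2.26-fold. Below that threshold, genes of trabecular myocardium were mostly lower and genes of mitosis and DNA replication mostly higher, each by small amounts. Genes within 5 Mb of Sav1 on chromosome 12 passed an unadjusted p of 0.05 more often than genes elsewhere.

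Sav1 itself was lower in the knockout libraries, although most of its counted sequence lies outside the deleted exon. The gene (ENSMUSG00000021067) lies on the minus strand of chromosome 12, at chr12:69965012-69987002 of mm10. Its level was 54.5, 56.2 and 61.9 CPM in the controls and 43.1, 36.1 and 43 CPM in the knockouts. All knockout libraries lay below all controls. The log2 fold change was -0.50, with a 95% confidence interval from -0.75 to -0.25 and an unadjusted p of 0.000305, and the edgeR quasi-likelihood test with Benjamini-Hochberg adjustment gave 0.318, so the difference did not pass over all genes. With replicate numbers as a block in a fit of the 6 libraries alone the adjusted p was 0.00609 for the same log2 fold change of -0.50. Controls of the first experiment, normalized separately, measured 54.3, 51.5 and 55.3 CPM. Exon 3 holds 271 bases, which is 10.7% of the 2524 bases of the main transcript and 5.15% of the 5265 exonic bases over which reads of the gene were counted. The remainder of 1 after division by 3 means that its removal shifts the reading frame downstream. Other genes overlap 25.4% of the exons of Sav1, so that some reads of this window cannot be assigned to Sav1 alone. The deleted exon is shown because it is the sequence the knockout removes. It is read 5′ to 3′ on the minus strand at chr12:69975968-69976238, from the GRCm38.p6 genome, with the site of the forward primer that the study used for Sav1 qPCR in capitals; the reverse primer lies in exon 4.
Sav1 exon 3: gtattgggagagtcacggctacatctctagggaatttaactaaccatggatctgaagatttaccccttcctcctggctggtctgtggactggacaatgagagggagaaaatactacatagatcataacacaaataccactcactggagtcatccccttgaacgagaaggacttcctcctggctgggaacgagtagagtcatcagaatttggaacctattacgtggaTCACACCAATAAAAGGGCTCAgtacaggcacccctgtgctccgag
The counts are given per gene and not per exon, so that reads of exon 3 could not be counted apart.

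Across the 17675 genes tested, 3 passed an adjusted p of 0.05 (0.017% of genes) in the edgeR quasi-likelihood test. Without adjustment, 693 genes had a p under 0.05 (3.92%), of which 325 were higher (1.84%) and 368 lower (2.08%) in the knockout. In 1055 genes (5.97%) every knockout library was above every control and in 1085 (6.14%) every knockout was below. A log2 fold change above 0 was found for 8839 genes (50%), and the median was 0.00. The number of calls moved with the fit. It was 36 when the 6 libraries were fitted without the LIN9 KO libraries, 16 higher and 20 lower, and 22 with no filter on low counts; both sets held the 3 genes. Fitted alone with replicate numbers as a block, the 6 libraries gave 121. The same block over the 12 libraries gave 2, Slit2 and Gm4742, and DESeq2 gave 2, Sptb and Slit2. No other gene, Sav1 included, passed in either of those fits. No gene passed without control 2, control 3, or knockout 1, 2 or 3; without control 1 there were 2, and without replicate 1 of the Sav1 wild-type, LIN9 KO libraries 7.

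**Figure D1:**
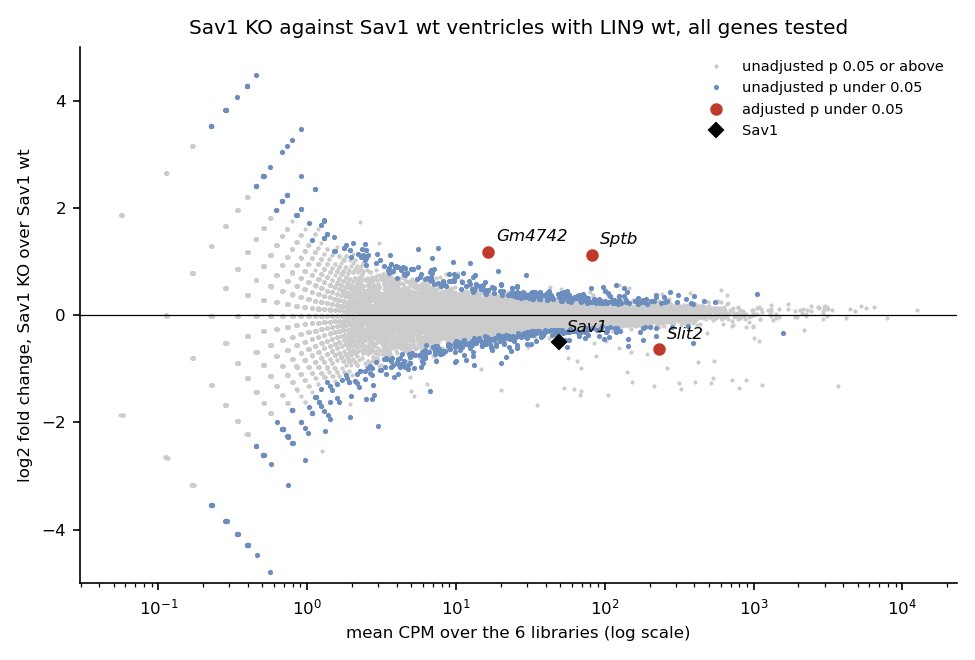
Log2 fold change of Sav1 knockout over Sav1 wild-type against the mean level over the 6 libraries (CPM, log scale), 1 point per gene tested. Red points passed an adjusted p of 0.05 (Sptb, Slit2 and Gm4742), blue points an unadjusted p of 0.05, and the black diamond is Sav1 at -0.50; 20 grey points of at least 20 CPM between -1.68 and -1.06 are the set with the profile of CT010467.1.

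Sptb (ENSMUSG00000021061) gave the smallest p of all genes. The spectrin it encodes lines the inner face of the membrane of red cells and striated muscle. It measured 65.2, 45.9 and 41.9 CPM in the controls and 111, 111 and 114 CPM in the knockouts. The 3 knockout libraries lay close together and above every control, with control 1 the highest of the controls. The log2 fold change was 1.13, with a 95% interval from 0.81 to 1.45 and an adjusted p of 0.00894 in edgeR. Controls of the first experiment, normalized separately, had 43.5, 60.7 and 42.6 CPM, also below the knockouts. With LIN9 KO the gene measured 67, 65.3 and 64.9 CPM with Sav1 and 56.2, 84.2 and 87.9 CPM without it, where the groups overlap. The test of the difference between both Sav1 effects gave -0.92 (interval -1.38 to -0.46), with an unadjusted p of 0.000442 and an adjusted p of 0.536. The call depended on the libraries and on the model. It held in DESeq2 (6.15e-06) and in edgeR on the 6 libraries alone (0.000366), on these with the replicate block (9.4e-13) and with no filter on low counts (2.54e-16). With the replicate block over the 12 libraries the adjusted p was 0.0681, without control 2 it was 0.109, without control 3 0.0547 and without knockouts 1, 2 and 3 0.0976, 0.118 and 0.094. Without control 1 it was 1.03e-05, with a log2 fold change of 1.35. Over these settings the log2 fold change stayed between 1.01 and 1.35. Sptb starts 6.59 Mb from Sav1 on the same chromosome, and what that position contributes was not tested.

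Slit2 (ENSMUSG00000031558) lies on chromosome 5 and encodes a ligand of Robo receptors. Its level was 244, 309 and 288 CPM in the controls and 196, 170 and 179 CPM in the knockouts. Every knockout lay below every control, and control 1 was the control nearest to them. The log2 fold change was -0.63 (interval -0.84 to -0.41), with an adjusted p of 0.0155 in edgeR. It was 0.0101 with the replicate block over the 12 libraries, 0.000366 on the 6 alone and 0.00112 in DESeq2. Without control 2 the adjusted p was 0.161, without control 3 0.236, and without knockouts 1, 2 and 3 0.0703, 0.252 and 0.185, while the log2 fold change ran from -0.71 to -0.57. Controls of the first experiment, normalized separately, measured 250, 250 and 183 CPM, so that 1 of them reached the level of the knockouts here. With LIN9 KO, Slit2 was at 276, 300 and 287 CPM with Sav1 and 270, 325 and 324 CPM without it. The groups overlap there, and the difference between the Sav1 effects was 0.72 (interval 0.42 to 1.02), with an unadjusted p of 3.64e-05 and an adjusted p of 0.439. That is the lowest adjusted p of the difference among all genes. The list of Slit ligands and Robo receptors had 10 genes tested, of which Slit2 alone passed, 3 were higher and 7 lower, and the median was -0.09 against 0.00 over all genes, with -0.02 without control 3 and -0.14 without knockout 3.

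Gm4742 (ENSMUSG00000105461), a processed pseudogene on chromosome 14, measured 9.31, 11.7 and 9.34 CPM in the controls and 26.6, 21.3 and 20.8 CPM in the knockouts. Every knockout was above every control. The log2 fold change was 1.18 (interval 0.76 to 1.60), with an adjusted p of 0.0199 in edgeR and 0.0729 in DESeq2. Leaving out any 1 of the 6 libraries ended the call: the adjusted p was 0.127, 0.109 and 0.236 without controls 1, 2 and 3, and 0.464, 0.118 and 0.094 without knockouts 1, 2 and 3. A processed pseudogene is a copy of a spliced transcript, so its reads can belong to its parent gene, and its value is uncertain for that reason.

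**Figure D2:**
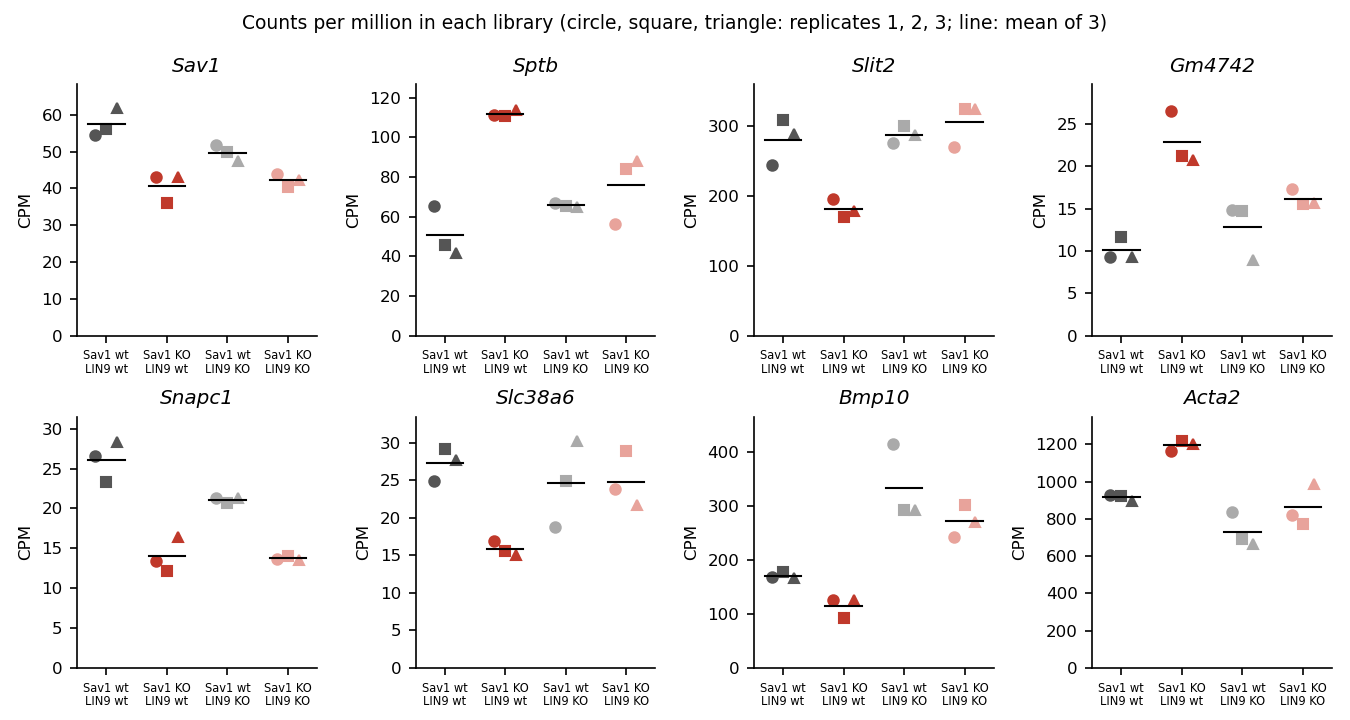
CPM of 8 genes in each of the 12 libraries (circle, square and triangle for replicates 1, 2 and 3; line for the mean of 3), with the vertical axes starting at 0. In the LIN9 wt groups the 3 knockouts lie apart from the 3 controls for all 8 genes; Sptb, Slit2 and Gm4742 passed the test, and Sptb stands near 111 CPM in each knockout.

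Around Sav1 the picture differed from the rest of the genome. Of 63 genes tested within 5 Mb of Sav1, 13 had an unadjusted p under 0.05 in edgeR (20.6%), 5 higher and 8 lower, against 3.84% of the 17024 genes on other chromosomes. From 5 to 10 Mb it was 2 of 37 (5.41%), from 10 to 20 Mb 7 of 145 (4.83%) and on the rest of chromosome 12 14 of 346 (4.05%). Groups did not overlap for 20 of the 63 genes (31.7%), against 12.1% on other chromosomes. The 5 Mb on the side of higher coordinates held 11 of the 13, of 34 genes tested (32.4%), and the other side 2 of 28 (7.14%). The count of 13 became 8 without control 3 and 6 in DESeq2, and stood between 9 and 18 under the other settings run. The median log2 fold change of the 63 genes was 0.00, as on other chromosomes, and 0 of them passed the adjusted test in edgeR over the 12 libraries.

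Snapc1, which encodes a subunit of the complex that activates small nuclear RNA genes, came closest to the threshold among them, 3.98 Mb from Sav1. It measured 26.6, 23.3 and 28.4 CPM in the controls and from 12.2 to 16.4 CPM in the knockouts. All knockouts lay below all controls. Its log2 fold change was -0.90 (interval -1.25 to -0.55), with an adjusted p of 0.0591 in edgeR for the 12 libraries of 0.0192 for the 6 libraries alone and of 0.00933 for the 12 with no filter on low counts. Slc38a6, a member of an amino acid transporter family, was at 24.9, 29.1 and 27.7 CPM in the controls and 16.8, 15.5 and 15 CPM in the knockouts, where the groups again do not overlap and the adjusted p in edgeR was 0.197, and 0.0241 with no filter. Prkch, the gene of protein kinase C eta, had a log2 fold change of -0.54 (p of 0.00164), and L3hypdh, which encodes a hydroxyproline dehydratase, one of -0.64 (p of 0.00411). Hif1a, the gene of the oxygen-regulated transcription factor, was at 19.3, 22.9 and 23.9 CPM in the controls and 15.1, 15.2 and 15.3 CPM in the knockouts; it is named after its values were seen. In all 5 genes the knockouts were the lower group. Cdkl1, a kinase gene 0.174 Mb from Sav1, went the other way, with 20.3, 8.91 and 12.4 CPM in the controls and 28.3, 23 and 22.5 CPM in the knockouts. Its groups do not overlap, but control 1 came close to knockout 3, and its log2 fold change of 0.82 became 1.20 without control 1 and 0.57 without control 2. With the replicate block on the 6 libraries alone the adjusted p in edgeR was 0.000312 for Snapc1, 0.00203 for Slc38a6, 0.00275 for Cdkl1 and 0.0335 for Prkch. The genes next to Sav1 on either side, Atl1 and Nin, had log2 fold changes of 0.19 (interval -0.30 to 0.68) and -0.08 (interval -0.33 to 0.17), and both their groups overlap.

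The Sav1 knockouts with LIN9 KO share no library with these 6, which makes the region comparable between both backgrounds. There, 14 of the 63 genes had an unadjusted p under 0.05 (22.2%), against 11.8% on other chromosomes. The groups did not overlap there for 9 of the 63 (14.3%), which is no more than the 15.1% on other chromosomes. Of the genes within 5 Mb, 6 had such a p in both backgrounds, and in all 6 the direction was the same: the mean of Snapc1, L3hypdh and Dact1 was lower in the knockout in both, and that of Arid4a, Timm9 and Daam1 higher. On other chromosomes 95 genes had such a p in both backgrounds and 77 of them the same direction. Snapc1 was at 21.4, 20.7 and 21.2 CPM with Sav1 and at most at 14.1 CPM without it in the LIN9 KO libraries. These groups do not overlap either, and the difference between both Sav1 effects for Snapc1 was 0.28 (interval -0.23 to 0.79). For other genes described above the log2 fold change with LIN9 KO was 0.02 for Slc38a6, -0.10 for Prkch, -0.03 for Hif1a and 0.17 for Cdkl1, and the groups overlap there for all 4. The difference between both Sav1 effects had an unadjusted p of 0.00318 for Slc38a6 and an adjusted p of 0.678 in edgeR. Daam1, which encodes a formin of Wnt signalling, measured 199, 236 and 221 CPM in the controls and 253, 268 and 247 CPM in the knockouts with LIN9. Timm9, the gene of a mitochondrial import chaperone, measured 52.9, 68.5 and 61.2 CPM and 73.7, 69.9 and 79.8 CPM in the same order. The knockouts were the higher group for both genes. Arid4a, Timm9, Dact1 and Daam1 were chosen after their values were seen. The floxed Sav1 allele and the chromosome around it travel together in the crosses, so that an effect of losing SAV1 and an effect of other sequence on that stretch cannot be told apart here.

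**Figure D3:**
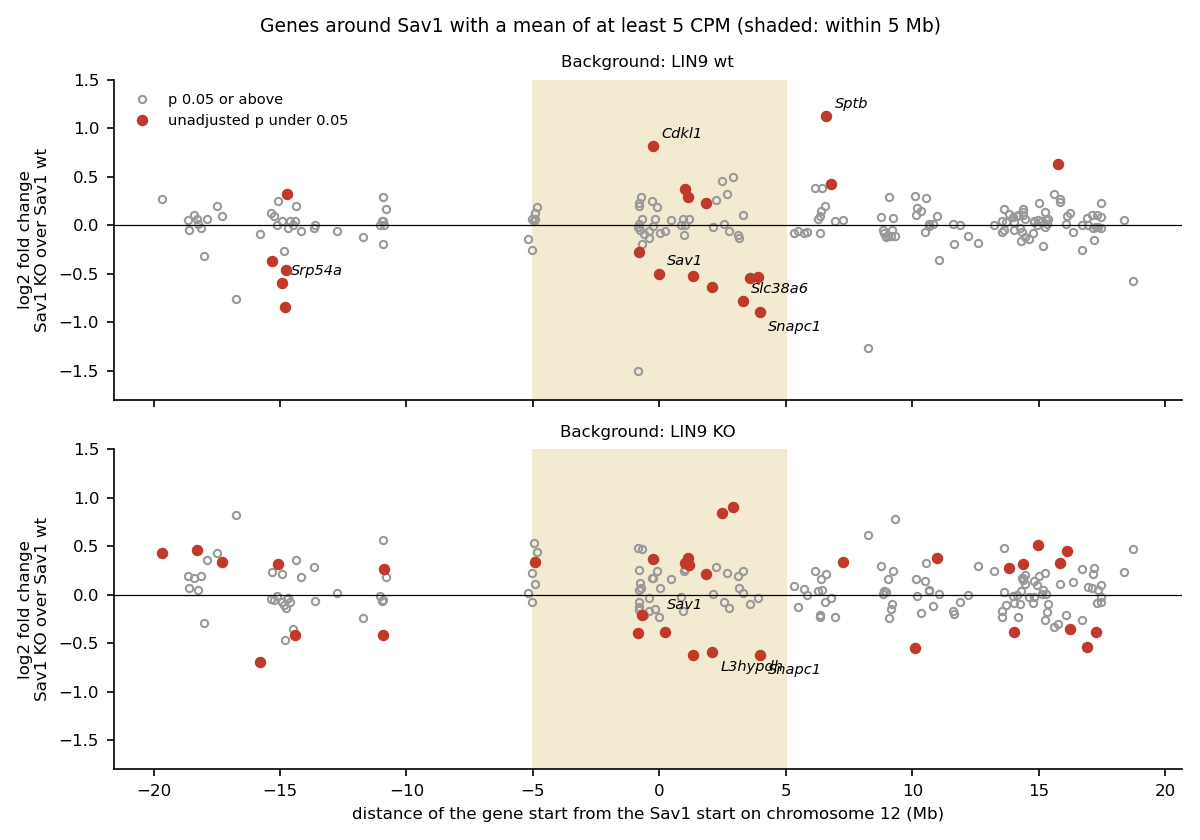
Log2 fold change of Sav1 knockout over Sav1 wild-type against distance from the Sav1 start (Mb), for genes of at least 5 CPM, with LIN9 wt (top) and LIN9 KO (bottom). Red points have an unadjusted p under 0.05. In the shaded 5 Mb on either side, 20.6% of all 63 genes tested had such a p with LIN9 wt and 22.2% with LIN9 KO. These shares count genes below 5 CPM too, which are not plotted.

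Farther along the same chromosome, Srp54a, about 14.9 Mb from Sav1, measured 58.5, 75.4 and 68.1 CPM in the controls and 41.1, 46.9 and 45.4 CPM in the knockouts. It encodes a subunit of the signal recognition particle, and all its knockouts lay below all controls. Its near copy Srp54c had a log2 fold change of -0.46 (p of 0.000418) and 1700047I17Rik2 beside it one of -0.84 (p of 0.00182). With the replicate block on the 6 libraries alone Srp54a (7.86e-05), Srp54c (9.19e-06) and 1700047I17Rik2 (0.045) passed the adjusted test in edgeR, as did Srp54a (0.00969) and Srp54c (0.0241) over the 12 with no filter. Copies this alike share reads, so which of them differs is uncertain. Fntb, the beta subunit of farnesyltransferase, starts next to Sptb and had 31.2, 29.1 and 26.6 CPM in the controls and 44.1, 40.2 and 33.1 CPM in the knockouts. Its log2 fold change was 0.43, with a p of 0.0056, which became 0.0526 when knockout 1 was left out.

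The other genes of the Hippo cascade stood close to their control levels. Of 32 genes tested, Sav1 included, 17 were higher and 15 lower, 0 passed the adjusted test in edgeR and 2 had an unadjusted p under 0.05, against 3.92% of all genes; with the replicate block on the 6 libraries alone Sav1 passed. The median was 0.01, and -0.03 without knockout 1. The kinase genes Stk3 and Stk4 had log2 fold changes of -0.05 (interval -0.32 to 0.21) and -0.12 (interval -0.37 to 0.12). Stk3 turned to 0.06 without control 3. Lats1 measured 54.2, 49.3 and 60.9 CPM in the controls and 62.3, 62.5 and 65.8 CPM in the knockouts, with all knockouts higher and a log2 fold change of 0.21 (interval -0.02 to 0.44). Lats2 had one of 0.12 (interval -0.11 to 0.36), which was -0.01 without knockout 1, and other genes overlap 42.4% of its exons. The cofactor genes Mob1a and Mob1b, whose proteins activate LATS kinases, had -0.08 (interval -0.28 to 0.13) and -0.04 (interval -0.34 to 0.26), the latter 0.03 without control 2. Nf2, which encodes the upstream activator merlin, had -0.02, and 0.03 without control 1 or 0.07 without knockout 3. Wwc1, the gene of the scaffold KIBRA, measured 14, 14.4 and 13.1 CPM in the controls and 18.2, 16.2 and 23.2 CPM in the knockouts. It was the member besides Sav1 with an unadjusted p under 0.05 (0.019), which became 0.147 without knockout 3.

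The effectors of the pathway did not differ at the transcript level beyond the spread of replicates. Yap1 measured 218, 178 and 180 CPM in the controls and 188, 177 and 173 CPM in the knockouts, and Wwtr1, the gene of TAZ, 130, 130 and 118 CPM and 131, 129 and 105 CPM. Both sets overlap, with log2 fold changes of -0.10 (interval -0.33 to 0.13) and -0.05 (interval -0.26 to 0.16); Wwtr1 turned to 0.05 without knockout 3. Per kilobase of exonic length, Tead2 was the most abundant TEAD gene in controls with 41.1 CPM per kilobase, ahead of Tead1 with 26.5, Tead3 with 11.2 and Tead4 with 3.61. Of the 8 genes of YAP, TAZ, TEAD and VGLL factors tested, 3 were higher and 5 lower, with a median of -0.01, and 0 had an unadjusted p under 0.05 in edgeR. Tead2 and Tead3 both had a log2 fold change of -0.01; Tead2 turned to 0.04 without knockout 3, and Tead3 to 0.02 without control 2 or 3 and to 0.04 without knockout 2. The pathway acts through phosphorylation of these proteins, which RNA levels do not measure.

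YAP target genes were mostly slightly higher. Of 29 tested, 21 were higher and 8 lower; 0 passed the adjusted test in edgeR over the 12 libraries, 3 higher and 1 lower had an unadjusted p under 0.05 (3.92% of all genes), and in 8 every knockout was above every control against 5.97% of all genes. The median was 0.09 beside 0.00 over all genes, 0.04 without knockout 2 and 0.11 without knockout 3. Ccn1, also called Cyr61, encodes a secreted matrix protein and is a long known target; it measured 50.2, 50 and 40.1 CPM in the controls and 64.6, 64.2 and 62.8 CPM in the knockouts. All knockouts lay above all controls, and its log2 fold change was 0.45 (interval 0.17 to 0.73), with an adjusted p of 0.0119 in edgeR with the replicate block on the 6 libraries alone, where Igfbp3 (0.0294) was the only other target to pass. Controls of the first experiment, normalized separately, had 101, 68.5 and 60 CPM of Ccn1, a range that takes in and exceeds the knockouts here. Amotl2, the gene of an angiomotin that binds YAP, measured 122, 118 and 122 CPM and 154, 137 and 132 CPM, again without overlap, at 0.22 (interval -0.01 to 0.46). For F3, the gene of tissue factor, the levels were 5.65, 4.11 and 5.53 CPM and 8.75, 8.1 and 8.53 CPM, and for Inhba, which encodes an activin subunit, 12, 13.4 and 13.8 CPM and 18.2, 18.6 and 17.4 CPM. In both the knockouts were the higher group. Ankrd1, a stress-responsive cardiac gene and the most abundant of the list, had a log2 fold change of 0.16 (interval -0.05 to 0.38). Ccn2, also called Ctgf, measured 82.1, 85.7 and 80.6 CPM in the controls and 81.4, 81 and 85 CPM in the knockouts. The log2 fold change of Ccn2 was -0.01 (interval -0.30 to 0.29), that of the receptor gene Axl -0.09 (interval -0.32 to 0.14), and neither showed a difference at this depth. With LIN9 KO the median of the list was 0.00, and for Amotl2 the difference between the Sav1 effects had an unadjusted p of 0.00154 and did not pass after adjustment.
TEAD factors are known to bind GGAATG or its reverse complement CATTCC. Promoters from 250 bases before to 50 after the start of transcription, taken from RefSeq on GRCm38.p6, were found for 21 of the 30 listed genes. Counting both strands, 9 of the 21 (42.9%) held these letters against 16.6% of all 27025 promoters. Among lists outside the Hippo pathway the share ran from 0% to 42.9%. It was 42.9% for platelet (3 of 7), 40% for ventricular cardiomyocyte and 36.4% for sarcomere genes. For origin licensing genes it was 10.8%, and for calcium handling, macrophage and Wnt target genes 0%. The list of YAP, TAZ, TEAD and VGLL factors had 6 of 8 (75%). The stretches of 4 targets named above, Axl among them, which was not higher, are shown 5′ to 3′ on the strand of the gene, with the match in capitals, because these genes are the ones whose levels are described. They lie at chr3:145650043-145650128 (Ccn1), chr9:102717699-102717784 (Amotl2), chr7:25788921-25788983 (Axl) and chr19:36119922-36120007 (Ankrd1).
Ccn1: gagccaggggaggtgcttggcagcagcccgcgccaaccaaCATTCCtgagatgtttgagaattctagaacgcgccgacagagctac
Amotl2: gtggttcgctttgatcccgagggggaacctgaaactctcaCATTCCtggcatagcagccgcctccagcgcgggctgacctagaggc
Axl: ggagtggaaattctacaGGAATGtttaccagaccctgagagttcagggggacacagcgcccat
Ankrd1: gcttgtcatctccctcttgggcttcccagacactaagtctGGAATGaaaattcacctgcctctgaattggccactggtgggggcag
A match describes the letters in the window and does not show that a factor binds there.

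Genes of the cell cycle were mostly higher in the knockouts, and by little. The MMB target genes for which the study lists qPCR primers had 13 of 14 tested, Prc1 being at 0 counts in the table; the study picked them, so their direction is not independent evidence. All 13 were higher, 0 passed the adjusted test in edgeR over the 12 libraries, 2 had an unadjusted p under 0.05 (3.92% of all genes) and in 3 every knockout was above every control (5.97% of all genes). The median was 0.15, and it was 0.08 without control 1 and 0.07 without knockout 2. The summed level was 1414, 1757 and 1867 CPM in the controls and 1737, 2022 and 1973 CPM in the knockouts, with Top2a the most abundant. Control 1 was the lowest library and knockout 1 lay below controls 2 and 3, so the groups overlap, although within each replicate number the knockout had the higher sum. Ect2, which encodes the exchange factor that starts cytokinesis, measured 106, 131 and 136 CPM in the controls and 137, 157 and 162 CPM in the knockouts. All its knockouts lay above the controls, if barely, and its log2 fold change was 0.29 (interval 0.05 to 0.53), with an adjusted p of 0.048 in edgeR with the replicate block on the 6 libraries alone. Anln, the gene of the contractile ring protein anillin, was at 145, 158 and 176 CPM and at 185, 185 and 200 CPM, also without overlap. Top2a, the topoisomerase of chromosome condensation, measured 404, 495 and 520 CPM and 517, 556 and 525 CPM, which overlap, and its log2 fold change of 0.17 was 0.07 without control 1. Foxm1, a transcription factor of the G2 phase, had 0.18 (interval -0.06 to 0.42).

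The values of other members of that list rest on single libraries. Cenpf had a log2 fold change of 0.57 (interval -0.92 to 2.05), which was 0.09 without control 1. Knl1, a kinetochore scaffold, had 0.17 and was at -0.18 without control 1. Aspm, a spindle pole protein, had 0.15 and was at -0.14 without control 1, and Nusap1, which binds spindle microtubules, had 0.11 and was at -0.01 without knockout 2. Kif23, the kinesin of the central spindle, had 0.15 (interval -0.07 to 0.37), and 0.08 without control 1. Mybl2, the gene of B-MYB, had 0.14 (interval -0.17 to 0.45), and 0.06 without knockout 2. Ccna2, the gene of cyclin A2, had 0.08 (interval -0.13 to 0.28), and 0.00 without control 2. Birc5, the gene of survivin, and Gas2l3, which links actin and microtubules, had 0.06 and 0.04, and 0.00 without control 2 and without knockout 1 respectively. Every one of these intervals reaches below 0. Lin9 itself measured 29.2, 28.1 and 23.2 CPM in the controls and 19.2, 31.4 and 25.6 CPM in the knockouts, which overlap, and its log2 fold change of -0.08 became 0.07 without knockout 1. In the libraries called LIN9 KO the Lin9 level was 13.2, 15.4 and 17.9 CPM with Sav1 but 23.5, 26.1 and 18.5 CPM without it, and these last overlap with the LIN9 wt libraries, so that the Lin9 counts do not set both LIN9 KO groups apart. The 14 genes of MuvB, MYB and DREAM partners had a median of 0.05, and -0.01 without control 1.
Promoters of MMB targets often hold the element TTTGAA, or TTCAAA on the other strand. It was in 8 of the 12 MMB target promoters found (66.7%), in 12 of 15 for mitotic kinesins (80%) and in 6 of 37 for replication genes (16.2%), beside 20.2% of all promoters of that length. Of the MMB targets only Ect2, Prc1 and Top2a held it before the start of transcription, and the others with a match held it at or after the start. The stretches of Ect2 at chr3:27153947-27154032 and Top2a at chr11:99024190-99024252 are shown 5′ to 3′ on the strand of the gene, with the element in capitals, because these are the targets with the clearest and the highest level.
Ect2: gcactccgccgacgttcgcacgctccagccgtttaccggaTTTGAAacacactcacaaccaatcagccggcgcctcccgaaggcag
Top2a: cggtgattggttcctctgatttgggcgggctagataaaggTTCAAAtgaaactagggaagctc
A match describes the letters in this window alone.

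By phase of the cycle, 24 of 29 genes of the kinetochore and spindle checkpoint were higher (median 0.08), 12 of 15 mitotic kinesins and spindle genes (0.11), 12 of 15 genes of cytokinesis (0.12), 8 of 11 of chromosome condensation (0.17) and 14 of 16 of mitotic entry (0.12). No gene of these lists passed the adjusted test in edgeR over the 12 libraries; with the replicate block on the 6 alone Ect2, the kinetochore motor gene Cenpe (0.0101) and the kinesin gene Kif20b (0.0189) did. Without control 1 the median of the kinetochore list was 0.05, and 0.14 without control 2, and that of cytokinesis was 0.07 without control 2. Without control 1 the median of the kinesins was 0.00 and that of condensation 0.01, while mitotic entry stood at 0.13 and at 0.06 without control 2. Within each replicate number the knockout had the higher mean log2 level for the kinetochore, kinesin and condensation lists. For condensation it went from -0.39 to 0.00, from 0.19 to 0.27 and from 0.20 to 0.29, relative to the mean of the controls. Among genes of mitotic entry, Pkmyt1, which encodes an inhibitory kinase of CDK1, measured 18.6, 17.8 and 22.1 CPM in the controls and 24.6, 24.6 and 26.6 CPM in the knockouts. From the kinetochore and spindle checkpoint list, Cdc20, the activator of the anaphase-promoting complex, measured 78.1, 62.4 and 69.5 CPM and 82.1, 85.1 and 83.9 CPM. From the cytokinesis list, Espl1, the gene of separase, measured 57.8, 51.4 and 62.6 CPM and 80.1, 68.5 and 72.7 CPM. In these 3 genes all knockouts lay above all controls, with unadjusted p-values of 0.0302, 0.0386 and 0.00873 in edgeR. Each had the smallest p of its list. Of the genes of mitotic entry, the kinetochore and cytokinesis, 1 of 16, 1 of 29 and 3 of 15 were higher with a p under 0.05 (1.84% of all genes). Every knockout was above every control in 3, 4 and 3 of them (5.97% of all genes). In these lists 0 genes were lower by either measure. Origin licensing and replication fork genes were higher in 39 of 44 (median 0.09, and 0.05 without control 2), with Cdt1 and Gins2 at 0 counts. Their summed level was 2671, 2631 and 2624 CPM in the controls and 2888, 2794 and 2799 CPM in the knockouts, without overlap and with control 1 in its group. Every knockout was above every control in 8 of the 44 genes (5.97% of all genes) and below in 2 (6.14% of all genes). In edgeR 1 higher gene (1.84% of all genes) and 1 lower gene (2.08% of all genes) had an unadjusted p under 0.05. The smallest p of the list, 0.00987, was that of Fen1, a flap endonuclease gene, which was lower at 6.98, 5.48 and 5.53 CPM and 1.68, 4.39 and 3.07 CPM. Other genes overlap 84.2% of the exons of Fen1, and it had 5 to 21 counts per library, so its value is uncertain. Gmnn, the gene of the licensing inhibitor geminin, was at 53.9, 43.5 and 45.7 CPM and at 58.9, 57.1 and 57.7 CPM. Nucleotide supply genes were higher in 14 of 16 (median 0.10, and 0.05 without control 2), among them Cad, the first enzyme of pyrimidine synthesis, at 59.5, 57.2 and 57.8 CPM and 83.8, 69.2 and 73 CPM, with an adjusted p of 0.0439 in edgeR with the replicate block on the 6 libraries alone. Of the G1 genes, 13 of 19 were higher (median 0.09, and 0.04 without knockout 1). Examples from both sides of that list are Cdk6, at 76.1, 87.4 and 88.5 CPM and 108, 101 and 96.5 CPM, and Ccnd1, the gene of cyclin D1, at 85.8, 81.5 and 78.5 CPM and 67.6, 68.5 and 61.1 CPM. Neither gene overlaps between groups, and they stand on opposite sides.

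**Figure D4:**
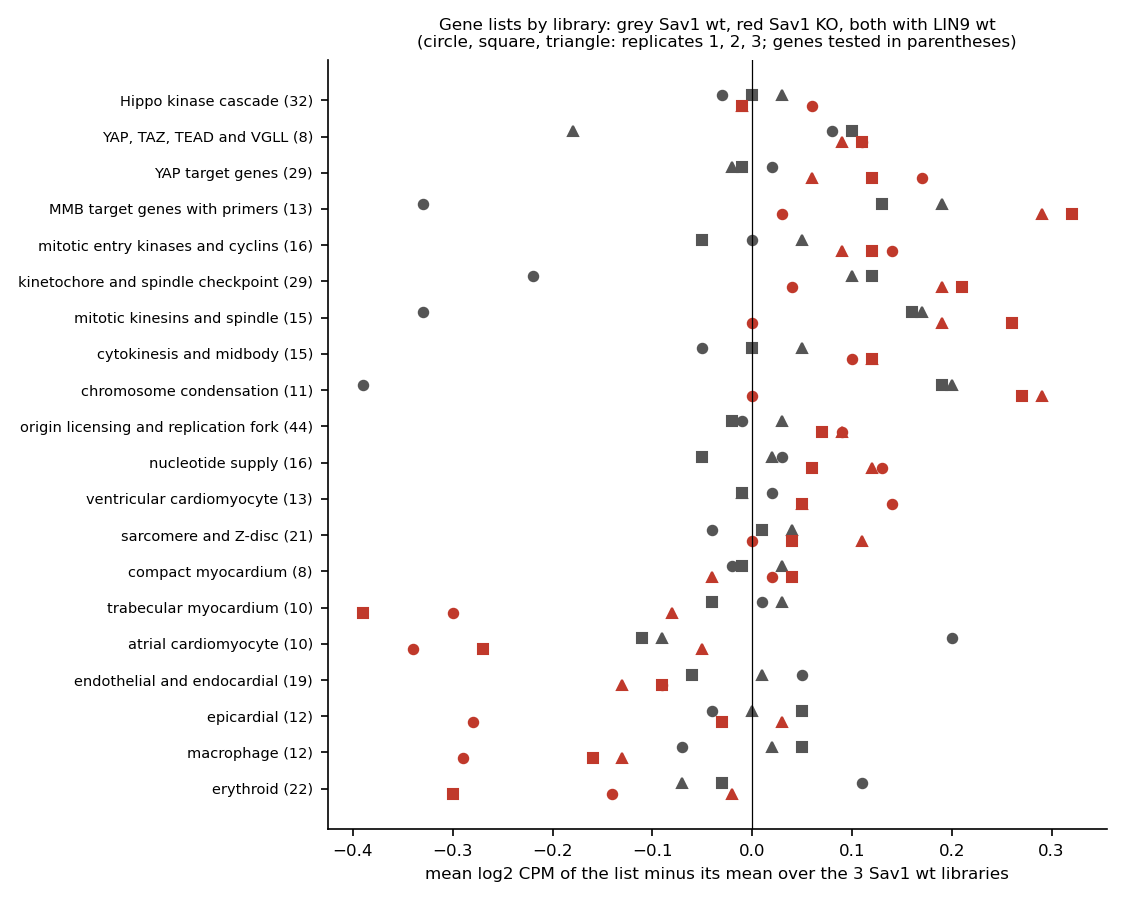
Mean log2 CPM of each gene list in each of the 6 libraries, minus its mean over the 3 Sav1 wild-type libraries (grey, Sav1 wild-type; red, Sav1 knockout; symbols for replicates 1, 2 and 3). Control 1 is lowest for chromosome condensation, at -0.39, and for the kinetochore and kinesin lists, whereas for origin licensing all knockouts, from 0.07 to 0.09, lie above all controls.

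In the myocardium, genes of the trabecular layer were mostly lower. Of 10 tested, 8 were lower and 2 higher; 0 passed the adjusted test in edgeR over the 12 libraries, 3 had an unadjusted p under 0.05, all lower (2.08% of all genes), and 4 had no overlap, all lower, against 6.14% of all genes. With the replicate block on the 6 alone Bmp10, Nppa and Sema3a (0.0378) passed. The median was -0.22, between -0.33 without knockout 3 and -0.16 without knockout 1. Bmp10, a growth factor made by trabecular and atrial cardiomyocytes, measured 168, 178 and 166 CPM in the controls and 125, 92.5 and 126 CPM in the knockouts. The knockouts lay below the controls, with knockout 2 the lowest. Its log2 fold change was -0.58 (interval -0.87 to -0.28), with an adjusted p of 0.502 in edgeR over the 12 libraries and of 0.00857 over the 6 alone, 6.57e-06 with these and the replicate block, and 0.000367 with no filter on low counts. Nppa, the gene of atrial natriuretic peptide and a trabecular marker at this stage, was at 491, 430 and 473 CPM in the controls and 346, 244 and 380 CPM in the knockouts. Again knockout 2 was the lowest; the log2 fold change was -0.52 (interval -0.80 to -0.24), with an adjusted p of 0.55 in edgeR over the 12 libraries, 1.88e-06 with the replicate block on the 6 alone and 0.00076 with no filter, and 61.5% of the exonic length of Nppa lies under another gene. Irx3, a transcription factor of the conduction system, was at 26.3, 27.1 and 23.5 CPM and 22.2, 17.9 and 19.1 CPM, also without overlap. The summed level of the list was 1302, 1260 and 1293 CPM in the controls and 1057, 877 and 1137 CPM in the knockouts.

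Of 8 genes of the compact layer tested, 5 were higher and 3 lower, with a median of 0.10. Leaving out 1 library moved it between 0.07 and 0.11. In edgeR over the 12 libraries 0 passed the adjusted test, and 1, higher, had an unadjusted p under 0.05 (1.84% of all genes). Every knockout was above every control in 3 (5.97% of all genes) and below in 1 (6.14%). The difference between the trabecular and compact lists was not tested. Hey2, the transcription factor of the compact layer, was at 134, 166 and 162 CPM in the controls and 184, 178 and 180 CPM in the knockouts. Mycn, which drives growth of this layer, was at 64.8, 53.1 and 55.7 CPM and 70.7, 66.9 and 66.9 CPM, and the Wnt receptor gene Fzd2 at 125, 107 and 114 CPM and 150, 147 and 128 CPM. All 3 had every knockout above every control, with log2 fold changes of 0.23, 0.23 and 0.29; that of Hey2 was 0.14 without control 1. Fgfr2, a growth factor receptor gene of the same list, went the other way, at 191, 245 and 289 CPM in the controls and 145, 143 and 149 CPM in the knockouts, with a log2 fold change of -0.73 (interval -2.09 to 0.63) over the 12 libraries and an adjusted p of 1.09e-08 in edgeR with the replicate block on the 6 alone. Like CT010467.1 it was far higher in the third Sav1 wild-type, LIN9 KO library, at 709 CPM against 144 and 152 CPM in the other 2. Fgfr2 was chosen after its values were seen, and what part that profile has in it was not tested.

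**Figure D5:**
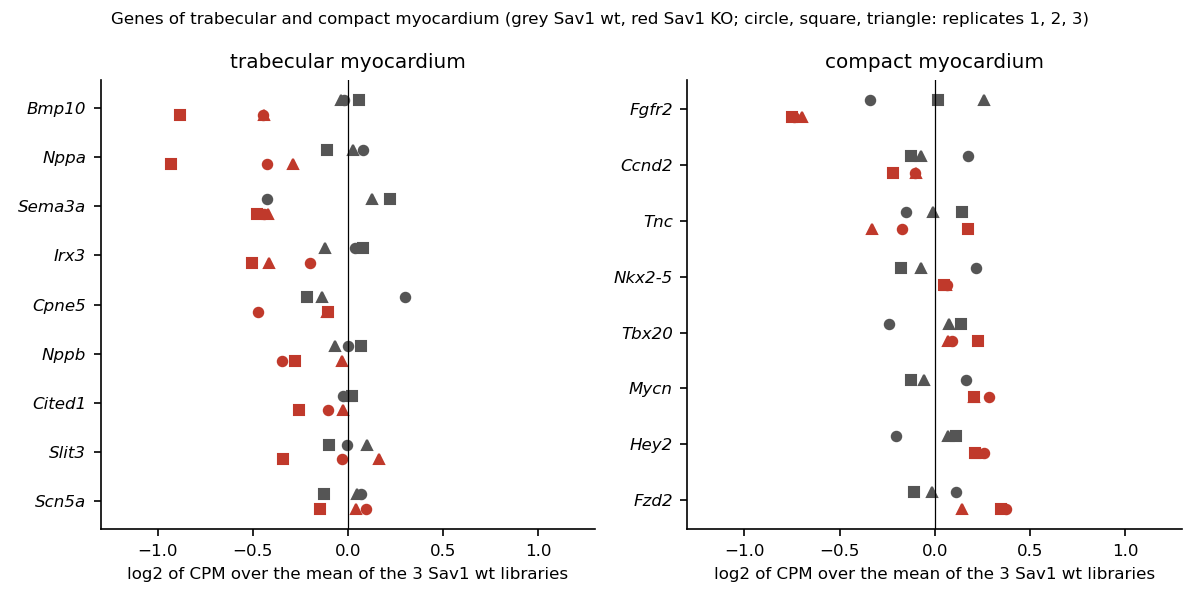
Genes of trabecular (left) and compact (right) myocardium with at least 5 CPM in the controls, as log2 of the CPM of each library over the mean of the 3 Sav1 wild-type libraries (grey, Sav1 wild-type; red, Sav1 knockout; symbols for replicates 1, 2 and 3). Bmp10, Nppa and Irx3 have all knockouts below all controls, and Hey2, Mycn and Fzd2 all knockouts above.

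The ventricular and contractile genes that define the tissue were abundant in all 6 libraries. The 13 ventricular cardiomyocyte genes summed to 14903, 14410 and 14450 CPM in the controls and 16031, 14691 and 15147 CPM in the knockouts, with Myh7, the slow myosin heavy chain, the most abundant. Of them 7 were higher and 6 lower, with a median of 0.06, and 0.02 without control 3. Of 26 sarcomere and Z-disc genes 21 were tested, since Actc1, Acta1, Tnnc1, Myom1 and Xirp1 stand at 0 counts in the table; 14 were higher and 7 lower, in 9 every knockout was above every control (5.97% of all genes), and the median was 0.08, and 0.03 without knockout 3. Myh7 measured 6047, 6119 and 6106 CPM in the controls and 7273, 6519 and 6647 CPM in the knockouts, and Actn2, the Z-disc actinin, 1220, 1252 and 1191 CPM and 1446, 1355 and 1384 CPM. The knockouts were the higher group for both, at log2 fold changes of 0.16 (interval -0.31 to 0.63) and 0.19 (interval -0.04 to 0.42). Of 13 calcium handling genes tested, 8 were higher and 5 lower, with a median of 0.07, and -0.04 without control 1. Among them Casq2, the calcium store protein of the sarcoplasmic reticulum, was at 333, 301 and 308 CPM and 393, 367 and 408 CPM, and Atp2a2, its calcium pump, had 0.20 (interval -0.04 to 0.43). Both were higher in all knockouts. Slc8a1 of the same list went the other way, at 593, 838 and 852 CPM and 650, 664 and 677 CPM. Its groups overlap, and its log2 fold change was -0.20. Atrial genes were lower in 9 of 10, with a median of -0.08, and -0.01 without control 1; Bmp10 and Nppa are in this list too. Respiratory chain genes had a median of -0.02, and 0.04 without control 1, and glycolysis genes one of 0.05, and 0.01 without control 2. None of the genes of these lists passed the adjusted test in edgeR over the 12 libraries; with the replicate block on the 6 alone Casq2 (0.00138) and Atp2a2 (0.0378) did, as did Bmp10 and Nppa.

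Markers of other cells were measured too; in whole ventricles fewer cells of a type and less RNA per cell cannot be told apart, and the part of these cells in the results above was not tested. Endothelial and endocardial genes were lower in 15 of 19 (median -0.12), with 0 past the adjusted test in edgeR and 6 without overlap, all lower (6.14% of all genes). Their sum was 1740, 1724 and 1716 CPM in the controls and 1614, 1516 and 1562 CPM in the knockouts, with Eng the most abundant. All knockouts lay below all controls. Tek, the angiopoietin receptor, measured 163, 182 and 188 CPM and 152, 158 and 159 CPM, and Npr3, an endocardial receptor, 182, 219 and 195 CPM and 176, 164 and 173 CPM. Macrophage genes were lower in 9 of 12 (median -0.22), summing to 143, 152 and 144 CPM and 120, 118 and 139 CPM, with Lyz2 the most abundant. Epicardial genes, 8 of 12 lower, had a median of -0.06, and -0.23 without knockout 3; they summed to 393, 420 and 414 CPM and 360, 404 and 416 CPM, with Tbx18 first, and Lrrn4 was at 24.6, 19.9 and 18.3 CPM and 15.1, 17.2 and 14.7 CPM. Knockout 1 was the lowest of this sum, and the groups overlap. Fibroblast and cushion genes, 10 of 15 lower with a median of -0.08 (-0.14 without knockout 2 and -0.03 without knockout 3), summed to 5250, 5813 and 5377 CPM and 5401, 5867 and 4980 CPM, led by Col3a1. Pdgfra, a receptor of that lineage, was at 128, 120 and 133 CPM and 102, 125 and 97.2 CPM, with overlap. Col1a1, a collagen gene of the same list, stood the other way, at 588, 510 and 467 CPM and 653, 621 and 579 CPM, also with overlap; its log2 fold change was 0.24 (interval -0.12 to 0.61), and the adjusted p in edgeR was 0.0117 with the replicate block on the 6 libraries alone. Platelet genes were higher in 8 of 8, but they summed to only 11, 17.8 and 15.6 CPM and 19.5, 14.9 and 24.9 CPM, which overlap. Their median of 0.58 was 0.19 without knockout 3 and 1.00 without control 2. Of 12 markers of liver, lung and neural tissue, 5 were at 0 (Alb, Nkx2-1, Sftpc, Sox2 and Tubb3), which does not show absence, since genes such as Actc1, Tnnc1 and Pln are at 0 in the table too, 4 were under the filter on low counts, and the 3 tested summed to between 2.74 and 4.73 CPM in the 6 libraries.

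Smooth muscle genes gave 1 of the larger differences for an abundant gene. Acta2, the smooth muscle actin that embryonic cardiomyocytes also express, measured 928, 922 and 896 CPM in the controls and 1163, 1221 and 1204 CPM in the knockouts. All knockouts lay above all controls with little spread; its log2 fold change was 0.39 (interval 0.17 to 0.60), with an adjusted p of 0.55 in edgeR over the 12 libraries, 0.00134 over the 6 alone and 1.63e-07 with these and the replicate block. The list as a whole did not follow: its median was 0.00 with 4 of 10 genes higher, and Cnn1, the gene of calponin, was at 273, 245 and 265 CPM and 235, 232 and 238 CPM, lower in every knockout. The list summed to 2073, 2007 and 2009 CPM and 2307, 2342 and 2298 CPM, a difference that Acta2 carries as its most abundant gene.

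Sptb also belongs to erythroid genes, and the rest of that list did not rise with it. Of 22 tested, 17 were lower and 5 higher, with a median of -0.19, -0.10 without control 1 and -0.32 without knockout 3; Alas2 was at 0. Its sum was 5750, 4661 and 4780 CPM in the controls and 4099, 3798 and 4831 CPM in the knockouts, with the embryonic globin Hbb-y the most abundant. Knockout 3 lay among the controls and the groups overlap. Hbb-y itself was at 1451, 1121 and 1220 CPM and 865, 769 and 1061 CPM, without overlap. Slc4a1, the anion exchanger of the red cell membrane that is tied to spectrin, was at 32.2, 31.2 and 29.4 CPM in the controls and 20.2, 19.2 and 21.5 CPM in the knockouts. It was lower in all knockouts while Sptb was higher, and its adjusted p in edgeR was 0.02 with the replicate block on the 6 libraries alone and 0.0497 with no filter. The globin gene Hbb-bh1 was lower without overlap too, at a log2 fold change of -1.01. Its adjusted p in edgeR was 0.000854 with that block on the 6 alone, and it did not pass over the 12. Klf1, the erythroid transcription factor, stood at 1.04 CPM or less in all 6 libraries. Among 18 spectrins and their partners, 10 were higher and 8 lower, with a median of 0.02. Sptbn1, the most abundant, was at 1112, 1266 and 1245 CPM and 1295, 1276 and 1296 CPM. Epb41l3, which encodes a linker of spectrin to the membrane, was at 182, 203 and 191 CPM and 248, 259 and 242 CPM. Every knockout was above every control for both, and Epb41l3 passed in edgeR on the 6 libraries alone, with an adjusted p of 0.0201 and of 0.000143 with the replicate block.

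Of the 20 genes with groups apart, at least 5 CPM and the smallest p in either direction, the others lie on several chromosomes. Bves, which encodes a membrane protein of striated muscle, measured 211, 248 and 238 CPM in the controls and 296, 320 and 322 CPM in the knockouts. Cobl, an actin nucleator, was at 18.3, 22.3 and 25.9 CPM and 33, 36.8 and 42 CPM. Plscr2, a member of the scramblase family, was at 5.98, 8.91 and 10 CPM and 16.8, 14.9 and 17.4 CPM. The other higher genes were Gm11942 (0.57), C530008M17Rik (0.53), Abca13 (1.25), a transporter gene, and 1110002E22Rik (0.42). Ache, the gene of acetylcholinesterase, was at 18.6, 14.1 and 19 CPM in the controls and 10.8, 7.09 and 9.21 CPM in the knockouts, and with LIN9 KO its log2 fold change was -0.58 against -0.93 here. Adgrg6, an adhesion receptor gene of the endocardium, was at 104, 115 and 124 CPM and 86.5, 73.6 and 90.1 CPM. Tmem88b was at 12, 9.25 and 7.96 CPM and 3.37, 4.05 and 3.41 CPM. By the choice of these genes none overlaps between groups, and none of those in this paragraph passed the adjusted test in edgeR over the 12 libraries with the filter on low counts. With no filter Gm11942 (0.00168), Cobl (0.0115), C530008M17Rik (0.0122), Ache (0.0241), Tmem88b (0.0279), Plscr2 (0.0388), Abca13 (0.0474) and Bves (0.0483) passed. In the fit of the 6 libraries alone Gm11942 (0.00134), Bves (0.00775), C530008M17Rik (0.00857), Cobl (0.029), Tmem88b (0.0311), 1110002E22Rik (0.0311), Adgrg6 (0.0382) and Abca13 (0.0452) did. With the replicate block on those 6 all of them passed, and so did Plscr2 (0.00466) and Ache (0.00528). The remaining signalling lists stood near all genes, with medians of 0.02 for the IGF pathway, -0.02 for immediate early genes and 0.00 for heat shock and ER stress. Wnt targets had -0.17, and 0.05 without control 3.

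For the effect with LIN9 KO, the same test over the 17675 genes called 2 (0.0113%), with 2093 at an unadjusted p under 0.05 (11.8%). The difference between both Sav1 effects passed for 0 genes (0%) in edgeR and for 0 in DESeq2, with 1156 at an unadjusted p under 0.05 (6.54%). These counts rest on single libraries. Replicate 1 of the Sav1 wild-type, LIN9 KO group stands apart too, with 285 of 8740 genes below 0.5 times the mean of its group's other libraries, more than the 158 of control 1. Without replicate 3 of the Sav1 wild-type, LIN9 KO group the difference passed for 64 genes and the effect with LIN9 KO for 356. Without control 1 of the LIN9 wt group they passed for 2 and 23, and the effect with LIN9 KO had 84 calls with the replicate block. No gene is therefore shown to respond to Sav1 with LIN9 present and not without it. Among genes of at least 5 CPM the median standard error of a log2 fold change was 0.15, and at this depth a difference of the size seen for most lists was not detectable gene by gene.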

How the data were processed

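Raw counts per gene deposited for 12 libraries of the second experiment were used, from polyA RNA of ventricles. According to the paper and the labels, the authors aligned reads with TopHat2 2.1.0 and Bowtie2 to mm10, brought each sample to the same number of mappable reads and counted reads per Ensembl gene of GRCm38.p6. Of 48709 genes, 17675 passed the filter (mean over the 12 libraries above 1 count) and were tested with R 4.3.3 and edgeR 4.0.16: TMM, robust quasi-likelihood fit of 4 groups without a block, contrasts of Sav1 knockout with wild-type for each Lin9 genotype and their difference, and Benjamini-Hochberg over all genes at 0.05. Alternatives used DESeq2 1.42.0, its size factors in edgeR, other filters, the 6 libraries alone, a replicate block and leaving out each library. CPM use TMM library sizes; positions and exonic lengths come from GENCODE M21. Whether equal replicate numbers form pairs was checked from the values alone. Over 12397 genes of at least 5 CPM, deviations from the group mean correlated at 0.33, 0.151 and 0.102 between replicates of equal number. These values lie above the limit of 0.1 set for a pair, and over all 17675 genes they were 0.143, 0.042 and 0.0193. Replicates of unequal number passed that limit too. Control 3 correlated more with knockout 2 (0.127), and control 2 reached 0.102 with knockout 3. Deviations in a group of 3 sum to 0, so replicates 1 that stand apart in both groups raise the correlations among the others. The check therefore cannot decide whether replicates 2 and 3 form pairs. No label states that libraries of equal replicate number belong together, and blocked p-values rest on that assumption. Blocked values are given, with this limit, for the genes described whose call they change. Members and lists were chosen with earlier results of these data known. Named genes were Sav1 and Lin9; every called gene; the 10 higher and 10 lower genes with the smallest p among those at 5 CPM or more with groups apart; Hippo core, YAP, TAZ, TEAD, selected YAP target and MMB target genes; for each other list the most abundant gene and the 3 with the smallest p; sex-linked genes, whose levels are not given; and genes next to Sav1 or within 20 Mb of it with p under 0.01.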

Additional observations from a re-analysis of the deposited data

How the results depend on the processing

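Over the alternatives, of 1300 values for 100 genes 1205 kept the same reading, 18 were weaker, 63 stronger and 14 reversed; of 467 list medians 437 stayed and 30 moved, and of 79 counts 41 stayed and 38 moved. The alternatives for the counts with LIN9 KO, for the difference between Sav1 effects and for the genes within 5 Mb of Sav1, and leaving out LIN9 KO libraries, were added after the data were seen. The cause of these shifts was not tested.

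The 3 genes called with LIN9 present became 2 in DESeq2 and 2 with the replicate block over the 12 libraries. The count became 22 with no filter on low counts, 36 for the 6 libraries alone, 121 for these with the replicate block, and 0 to 7 when 1 library was left out. Within 20 Mb of Sav1 the count of 1 became 5, 4 and 13 in the same order (the 13 include Sav1 itself, and Gphn, Rn7s1 and Rn7s2, which like CT010467.1 are highest in the third Sav1 wild-type, LIN9 KO library), 0 with the replicate block over 12 libraries, and 0 to 1 with 1 library left out. The 13 genes within 5 Mb at an unadjusted p under 0.05 became 8 without control 3 and 6 in DESeq2.

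With LIN9 KO, 2 calls became 309 with no filter, 0 with filterByExpr, 84 with the replicate block, 77 in DESeq2 and 0 to 356 with 1 library left out. The difference between Sav1 effects went from 0 to 17 with no filter and to between 0 and 64 with 1 library left out.

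With the replicate block on the 6 libraries alone, Sav1 had a log2 fold change of -0.50 and an adjusted p of 0.00609. The adjusted p of Sptb was 0.0681 with the block over 12 libraries and up to 0.118 with 1 library left out, that of Slit2 up to 0.252 and that of Gm4742 up to 0.464; Gm4742 had 0.0729 in DESeq2.

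Log2 fold changes that changed sign when 1 library was left out ran from -0.27 to 0.07 for Lin9, -0.01 to 0.26 for Lats2, -0.12 to 0.06 for Stk3, -0.14 to 0.03 for Mob1b, -0.11 to 0.07 for Nf2, -0.12 to 0.05 for Wwtr1, -0.05 to 0.04 for Tead2, -0.08 to 0.04 for Tead3, -0.18 to 0.44 for Knl1, -0.14 to 0.34 for Aspm and -0.01 to 0.19 for Nusap1.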
